A study of Mus musculus with 15 samples.

Results

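The genes described here are the WNT ligands, the Frizzled receptors and 18 further genes of the WNT pathway. They were every gene of the deposited count table whose symbol was Wnt or Fzd with a number, together with Dkk1, Dkk2, Dkk3, Sfrp1, Sfrp2, Sfrp5, Frzb, Wif1, Notum, Porcn, Axin1, Axin2, Apc, Ctnnb1, Lef1, Tcf7, Tcf7l1 and Tcf7l2. This gave 47 of 24034 genes: 19 ligands, 10 Frizzled receptors, 9 secreted inhibitors, the ligand-modifying enzyme Porcn, 4 genes of the destruction complex and beta-catenin, and the 4 nuclear factors of the TCF/LEF family. The values are RNA-seq read counts from 15 libraries of differentiated mouse embryonic stem cells, in 5 sorted groups of 3. The cells carried a LacZ reporter under regulatory elements of Endoglin (Eng), and the study used them to look at precursors of blood.

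A pair of groups came from the line whose reporter combines the Eng promoter (P) with the -8, +7 and +9 enhancers. These were FLK1+ mesoderm cells without LacZ activity (FLK1+ LacZ-) and with it (FLK1+ LacZ+). The other 3 groups came from the line with the promoter and the -8 enhancer only and are labelled HEI, a term the labels do not spell out; the design text places this reporter in TIE2+/c-KIT+/CD41- haemogenic endothelium. They differ in surface Endoglin (ENG) and in reporter activity, giving an ENG+FDG- group, an ENG+FDG+ group and an ENG-FDG+ group, where FDG is a fluorogenic substrate of the LacZ enzyme. All groups thus carry a reporter, and none is an unmodified line. The sources used here give no culture days, sort gates or number of clones per line, and nothing says that replicates were separate cultures, so p-values measure the spread between these libraries. FLK1+ and HEI cells differ in stage and also in reporter line, and these cannot be told apart.

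WNT proteins are secreted, lipid-modified signals that bind Frizzled receptors with the co-receptors LRP5 and LRP6. In the canonical branch this stops the destruction complex, built on Axin and APC, from breaking down beta-catenin, which then acts in the nucleus with TCF/LEF factors. Some targets, Axin2, Dkk1 and Notum among them, are themselves inhibitors and form a negative feedback. The pathway is known for inducing the primitive streak and mesoderm and for later roles in endothelium and blood emergence.

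From FLK1+ to HEI cells, most WNT ligands that were measurable at all, the feedback inhibitors, and the nuclear factors Tcf7 and Lef1 fell, while beta-catenin, Apc, Axin1, Tcf7l1 and Tcf7l2 did not pass the test. With the replicate number as a block in the model, 4 of these 5 passed as well: Ctnnb1 (beta-catenin), Apc and Tcf7l2 as higher and Axin1 as lower in HEI cells, by log2 differences between -0.40 and 0.63. Of the 34 members that passed the filter on low counts, 15 fell and 1, Fzd8, rose past an adjusted p of 0.05 (edgeR quasi-likelihood test, Benjamini-Hochberg over all 13662 genes tested). Over all genes tested 37.3% were called, 20.3% as lower in HEI cells. The median log2 difference over the members tested was -0.87, against -0.11 over all genes tested. In bulk libraries, fewer cells that express a gene and less RNA per cell cannot be told apart.

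**Figure D1:**
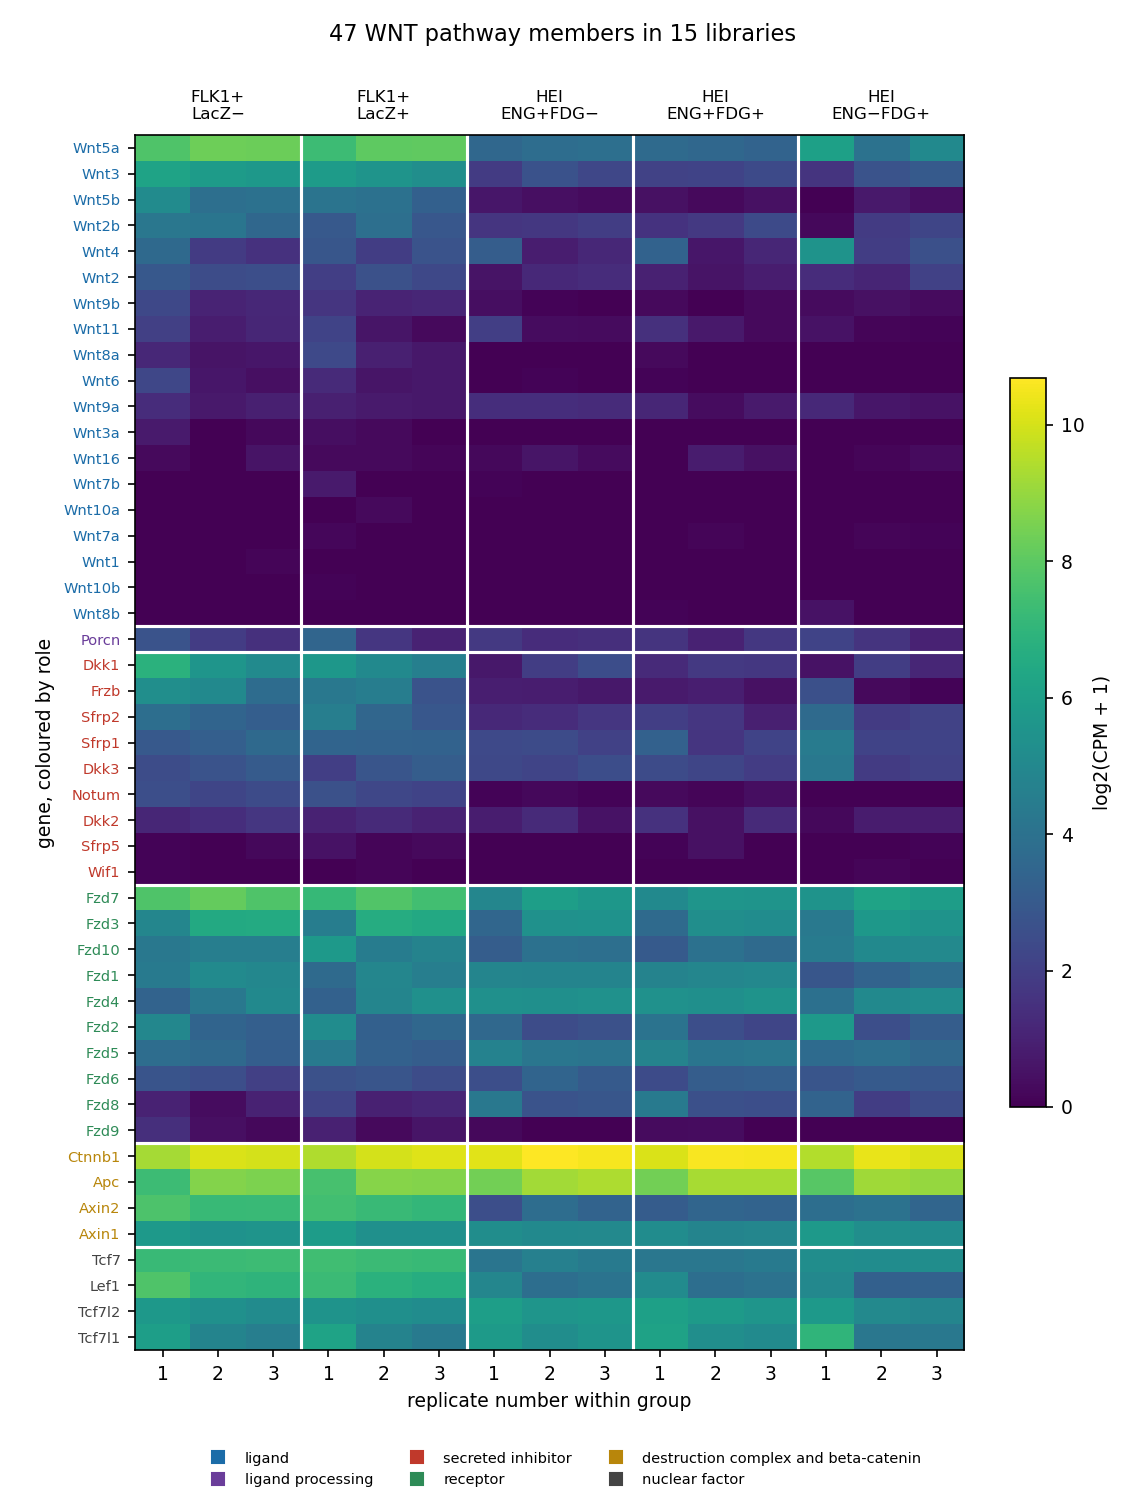
Heat map of log2(CPM + 1), where CPM is the count brought by TMM scaling to the same library size in all libraries, for the 47 members (one line per gene, coloured by role) in 15 libraries (columns, 3 replicates per group). Wnt5a, Wnt3, Dkk1, Axin2, Tcf7 and Lef1 are brighter in the 6 FLK1+ columns than in the 9 HEI columns, while Ctnnb1 and Apc are bright in all 15.

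The sequence before the start of these genes is shown because canonical targets are read out through TCF/LEF binding. The 250 bases before each RefSeq start (GRCm38.p6) were searched on both strands for 4 TCF/LEF words. These were CTTTGAA (found in Dkk1), CTTTGAT (found in Wnt5b and Wnt11), CTTTGTA (found in Lef1) and CTTTGTT (found in Dkk1, Fzd7 and Tcf7l2). The words differ only in their last letters and so cannot overlap on one strand. Of the 47 members, 33 had an entry in the promoter table, with 42 starts in all. A word stood before 6 of these 42 starts (14.3%), against 14.8% of all 32851 starts in the table. Of the members that fell from FLK1+ to HEI cells, 13 had an entry, and 4 of their 19 starts (21.1%) had a word. The sequences below are those 4 and that of Axin2, a gene widely used as a readout of the pathway, and capitals mark the words. Axin2 lies on chr11:108920099-108920348 (plus strand), Fzd7 on chr1:59481897-59482146 (plus strand), Lef1 on chr3:131156044-131156293 (plus strand) and Wnt5b on chr6:119449387-119449636 (minus strand). For Dkk1 the stretch from the first to the last word is given, chr19:30549588-30549613 (minus strand), because GENCODE M21 puts an exon over 169 bases of its 250-base window.
Axin2: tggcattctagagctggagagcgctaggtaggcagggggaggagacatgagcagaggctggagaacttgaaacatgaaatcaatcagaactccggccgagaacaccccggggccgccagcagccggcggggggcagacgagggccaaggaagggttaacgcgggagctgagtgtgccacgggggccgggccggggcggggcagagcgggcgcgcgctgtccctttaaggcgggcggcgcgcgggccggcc
Fzd7: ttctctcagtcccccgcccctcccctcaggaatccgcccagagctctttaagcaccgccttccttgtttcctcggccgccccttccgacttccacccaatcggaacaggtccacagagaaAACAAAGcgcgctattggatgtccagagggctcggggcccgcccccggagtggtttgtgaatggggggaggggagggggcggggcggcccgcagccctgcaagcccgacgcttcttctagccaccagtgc
Lef1: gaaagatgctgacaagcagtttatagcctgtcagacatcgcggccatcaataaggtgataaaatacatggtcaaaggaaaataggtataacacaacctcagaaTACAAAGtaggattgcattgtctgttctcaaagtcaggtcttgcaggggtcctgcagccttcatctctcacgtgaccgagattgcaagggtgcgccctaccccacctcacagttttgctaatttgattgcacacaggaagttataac
Wnt5b: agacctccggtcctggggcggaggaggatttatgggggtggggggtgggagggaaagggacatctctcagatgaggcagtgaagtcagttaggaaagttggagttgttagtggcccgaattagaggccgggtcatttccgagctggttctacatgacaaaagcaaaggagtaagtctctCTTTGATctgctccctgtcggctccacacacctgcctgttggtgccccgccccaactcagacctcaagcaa
Dkk1: CTTTGAAatcccatcccggCTTTGTT
The Axin2 window held none of the 4 words. Dkk1 had a pair of them, the first starting 117 bases and the other 98 bases before the RefSeq start. Both lie inside the Dkk1 gene of GENCODE M21 (chr19:30545863-30549665), so by that annotation they are not upstream of the gene. The word of Fzd7 began 130 bases and that of Lef1 147 bases before the start, both read on the opposite strand, and that of Wnt5b began 71 bases before the start. The starts shown for Lef1 and Wnt5b lie inside the longer gene bodies of GENCODE M21, and other starts of both genes had no word. A match of these letters is a description of the window only.

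Libraries held 9673396 to 16337785 counts. Replicate 1 stood apart in all 5 groups: within a group, log2 CPM correlated at 0.864 to 0.933 between replicate 1 and the others, and at 0.987 to 0.990 between replicates 2 and 3. The labelled identities matched their markers in part. The summed CPM of 8 endothelial genes (Cdh5, Pecam1 and others) was 1799 to 5757 in the HEI libraries and 68.7 to 356 in the FLK1+ libraries. The sum of 8 early haematopoietic genes was 607 to 794 in ENG-FDG+ cells and 198 to 305 in the other HEI groups. In the FLK1+ libraries it was 267 to 431, so the ENG+ HEI libraries lay within or below the FLK1+ range for this list. In replicate 1 of ENG-FDG+ cells, 7 genes of smooth muscle and mesenchyme (Acta2, Col1a1 and others) summed to 5093 CPM. Replicates 2 and 3 of that group had 346 and 766 CPM, and the ENG+ HEI libraries 116 to 563 CPM. The erythroid sum of the same replicate 1 library was 299 CPM, against 30.4 and 36 CPM in replicates 2 and 3. Its cardiac sum was 129 against 19.3 and 34.8 CPM, and its neural and ectodermal sum 178 against 12.3 and 29.6 CPM. It detected 13954 genes, and the other libraries 15440 to 17064. Without that library, 22 members passed between the stages in place of 16, and 40.9% of all genes tested in place of 37.3%. Sfrp1, Dkk3 and Axin1 were then called, as were Fzd9, Wnt6 and Wnt8a, which passed the filter on low counts only when a library was left out.

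Of the 19 ligands, 9 passed the filter, and 6 of these fell: Wnt5a, Wnt3, Wnt5b, Wnt2b, Wnt2 and Wnt9b. The summed level of all 19, in CPM per kilobase of exon, was 57.5 to 83.8 in the FLK1+ libraries and 4.28 to 22.2 in the HEI libraries, so the groups did not overlap. The 22.2 is replicate 1 of ENG-FDG+ cells, and the highest of the other 8 HEI libraries was 11.3. On this per-length scale Wnt5a took a median of 57.2% of the sum in FLK1+ libraries and Wnt3 23.2%, and in HEI libraries 32.7% and 21.4%.

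Wnt5a (ENSMUSG00000021994.15, GRCm38 chr14:28504750-28527448, plus strand) encodes a ligand known mainly for non-canonical signalling. It read 215, 320 and 311 CPM in FLK1+ LacZ- and 160, 264 and 268 CPM in FLK1+ LacZ+ cells. In HEI cells it read 10.8, 13.1 and 14.1 CPM in the ENG+FDG- group, 11.9, 11 and 9.64 CPM in the ENG+FDG+ group and 66.8, 15.1 and 33.1 CPM in the ENG-FDG+ group. It fell by 3.87 on the log2 scale (SE 0.27; adjusted p = 5.0e-07). The lowest FLK1+ library was above the highest HEI library, and that highest one was replicate 1 of ENG-FDG+ cells.

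Wnt3 (ENSMUSG00000000125.5, GRCm38 chr11:103774150-103817957, plus strand), the canonical ligand needed for the primitive streak, read 73.3, 57.2 and 51.4 CPM in FLK1+ LacZ- and 57.7, 45.5 and 38 CPM in FLK1+ LacZ+ cells. The HEI values were 2.61, 5.55 and 3.81 CPM in the ENG+FDG- group, 3.32, 3.43 and 4.27 CPM in the ENG+FDG+ group and 2.04, 5.67 and 7.24 CPM in the ENG-FDG+ group. Mean CPM was 12.8-fold lower in HEI cells, and the gene fell by 3.68 on the log2 scale (SE 0.27; adjusted p = 5.7e-07). No HEI library came near the lowest FLK1+ library.

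Wnt5b (ENSMUSG00000030170.14, GRCm38 chr6:119432531-119544347, minus strand), a paralogue of Wnt5a, read 34.8, 14.1 and 14.9 CPM in FLK1+ LacZ- and 16.1, 14.8 and 8.83 CPM in FLK1+ LacZ+ cells, and 0.546, 0.353 and 0.26 CPM in the ENG+FDG- group, 0.39, 0.19 and 0.397 CPM in the ENG+FDG+ group and 0, 0.673 and 0.341 CPM in the ENG-FDG+ group. It fell by 5.54 on the log2 scale (SE 0.46; adjusted p = 1.6e-06). At most 9 reads were counted in any HEI library. Wnt2b, a canonical ligand, read 18, 16.6 and 11 CPM in FLK1+ LacZ- and 6.83, 13.8 and 6.47 CPM in FLK1+ LacZ+ cells, and 2.18, 2.29 and 2.86 CPM in the ENG+FDG- group, 1.95, 2.38 and 4.27 CPM in the ENG+FDG+ group and 0.17, 2.6 and 3.75 CPM in the ENG-FDG+ group. It fell by 2.24 on the log2 scale (SE 0.43; adjusted p = 0.00124), with no overlap between the stages.

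Wnt2, a paralogue of Wnt2b, read 6.8, 4.61 and 5.01 CPM in FLK1+ LacZ- and 2.94, 5.2 and 4 CPM in FLK1+ LacZ+ cells, and 0.485, 1.32 and 1.56 CPM in the ENG+FDG- group, 0.976, 0.476 and 0.795 CPM in the ENG+FDG+ group and 1.53, 1.15 and 3.24 CPM in the ENG-FDG+ group. It fell by 1.98 on the log2 scale (SE 0.33; adjusted p = 0.000379); the highest HEI library (3.24 CPM) lay above the lowest FLK1+ library (2.94 CPM). Wnt9b, a ligand best known from the kidney, was low throughout. It read 4, 1.11 and 1.3 CPM in FLK1+ LacZ- and 2.17, 1.1 and 1.23 CPM in FLK1+ LacZ+ cells, and 0.303, 0.0881 and 0 CPM in the ENG+FDG- group, 0.195, 0 and 0.199 CPM in the ENG+FDG+ group and 0.255, 0.385 and 0.256 CPM in the ENG-FDG+ group. Even so the stages did not overlap, and Wnt9b fell by 3.26 on the log2 scale (SE 0.55; adjusted p = 0.000449).

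The 3 other measured ligands did not pass. Wnt4 lay between 1.85 and 11.6 CPM in FLK1+ and between 0.571 and 44.5 CPM in HEI libraries, with a log2 difference of 0.23 (SE 0.79; adjusted p = 0.852), and of -0.37 (adjusted p = 0.354) with the block. The 44.5 CPM is replicate 1 of ENG-FDG+ cells, without which the Wnt4 difference was -0.45 (adjusted p = 0.641); in replicates 2 and 3 alone it was -0.88 and passed (adjusted p = 0.0126). Wnt9a had 0.616 to 1.54 CPM in FLK1+ and 0.286 to 1.67 CPM in HEI libraries. Wnt11 had 0.205 to 3.45 CPM and 0.0852 to 2.97 CPM, and its difference was -1.34 (adjusted p = 0.187), or -1.44 (adjusted p = 0.00597) with the block. It moved with single libraries: without replicate 1 of LacZ+ cells it was -0.35 (adjusted p = 0.765), and without replicate 1 of ENG+FDG- cells -2.05 (adjusted p = 0.0401).

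The remaining 10 ligands stayed below the filter and were not tested. Their largest count in any library was 65 for Wnt8a, 55 for Wnt6, 11 for Wnt7b, 10 for Wnt3a, 8 for Wnt16, 5 for Wnt8b, 2 for Wnt10a and Wnt7a, and 1 for Wnt1 and Wnt10b. Wnt8a and Wnt6 still did not overlap between the stages: Wnt8a had 5 to 65 reads in FLK1+ and 0 to 3 in HEI libraries, and Wnt6 had 4 to 55 and 0 to 1. Wnt3a, a canonical ligand of the posterior streak, had 0 to 10 reads in FLK1+ libraries and none in the 9 HEI libraries, where a count of 0 allows up to 3 reads in each.

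**Figure D2:**
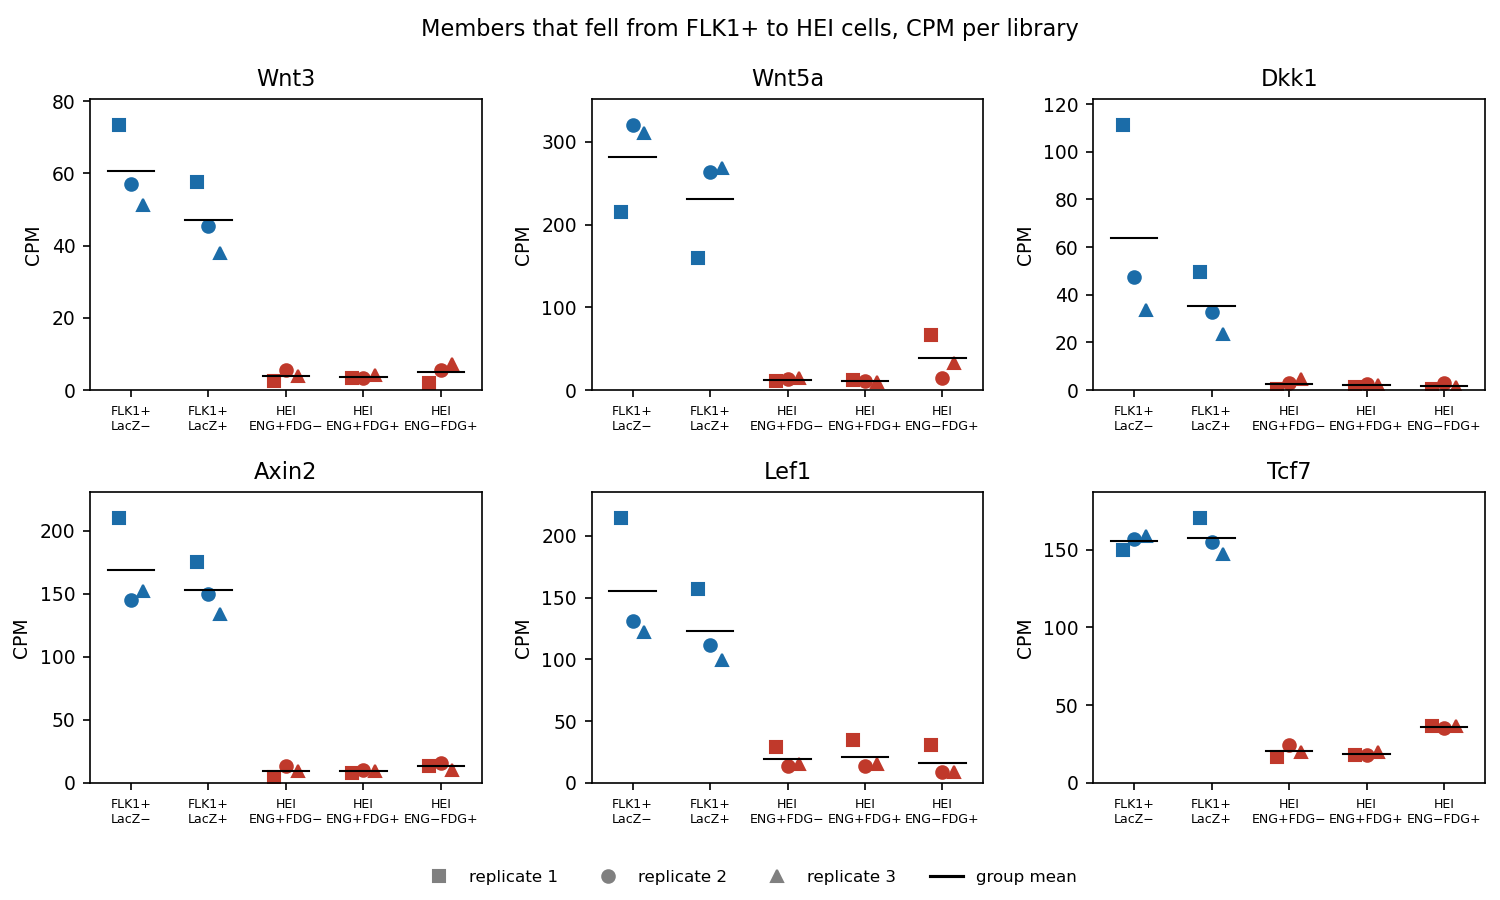
CPM per library (vertical axis from 0) of 6 members that fell, by sorted group, with replicates as symbols and the group mean as a line. All 6 FLK1+ libraries of each gene lie above all 9 HEI libraries. For Tcf7 and Wnt5a the ENG-FDG+ libraries lie above all other HEI libraries, close together for Tcf7 and spread out for Wnt5a.

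Porcn, the acyltransferase that attaches the lipid to WNT proteins, had 1.03 to 10.2 CPM in FLK1+ libraries and 1.02 to 3.48 CPM in HEI libraries. Its log2 difference of -0.99 (SE 0.48) did not pass (adjusted p = 0.128). The highest value in each stage came from a replicate 1 library. Without replicate 1 of LacZ+ cells the Porcn difference was -0.25 (adjusted p = 0.675), and without replicate 3 of LacZ+ cells -1.21 (adjusted p = 0.0494).

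Among the secreted inhibitors, 7 of 9 were tested and 4 fell: Dkk1, Frzb, Notum and Sfrp2. Dkk1 (ENSMUSG00000024868.8, GRCm38 chr19:30545863-30549665, minus strand), which blocks the LRP5/6 co-receptors, read 111, 47.3 and 33.5 CPM in FLK1+ LacZ- and 49.4, 32.8 and 23.4 CPM in FLK1+ LacZ+ cells. In HEI cells it read 0.607, 2.82 and 4.76 CPM in the ENG+FDG- group, 1.43, 2.38 and 2.29 CPM in the ENG+FDG+ group and 0.424, 2.89 and 1.19 CPM in the ENG-FDG+ group. It fell by 4.55 on the log2 scale (SE 0.48; adjusted p = 1.1e-05), and its mean CPM was 23.7-fold lower in HEI cells. FLK1+ libraries spread from 23.4 to 111 CPM, all above the highest HEI value of 4.76 CPM.

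Notum (ENSMUSG00000042988.10, GRCm38 chr11:120653788-120661175, minus strand), the enzyme that removes the lipid from WNT proteins, read 4.91, 3.69 and 4.36 CPM in FLK1+ LacZ- and 5.3, 3.9 and 3.49 CPM in FLK1+ LacZ+ cells. The HEI values were 0.0607, 0.176 and 0.0866 CPM in the ENG+FDG- group, 0.195, 0.0952 and 0.298 CPM in the ENG+FDG+ group and 0, 0 and 0 CPM in the ENG-FDG+ group, which is 0 to 3 reads per library. Summed over libraries, 313 reads stood in FLK1+ and 11 in HEI cells, a ratio of 43.2 per library size with an exact (Clopper-Pearson) 95% interval of 23.8 to 87.4 that covers counting error only. The fall passed the test (adjusted p = 7.4e-07).

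Frzb, a Frizzled-like decoy that binds WNT proteins, read 37.9, 32.6 and 12.6 CPM in FLK1+ LacZ- and 18.3, 22.2 and 5.64 CPM in FLK1+ LacZ+ cells, and 0.849, 0.793 and 0.606 CPM in the ENG+FDG- group, 0.716, 0.857 and 0.397 CPM in the ENG+FDG+ group and 5.18, 0.192 and 0.0852 CPM in the ENG-FDG+ group. It fell by 4.40 on the log2 scale (SE 0.66; adjusted p = 0.000186). The stages were close only at replicate 1 of ENG-FDG+ cells (5.18 CPM) and replicate 3 of LacZ+ cells (5.64 CPM). Without the first of these the Frzb difference was -5.59, and in replicates 2 and 3 alone it was -5.35. Sfrp2, another such decoy, read 13.7, 9.88 and 8.16 CPM in FLK1+ LacZ- and 22.5, 10.6 and 6.57 CPM in FLK1+ LacZ+ cells, and 1.33, 1.59 and 2.25 CPM in the ENG+FDG- group, 2.93, 2.19 and 0.894 CPM in the ENG+FDG+ group and 11.8, 2.6 and 3.32 CPM in the ENG-FDG+ group. It fell by 2.11 on the log2 scale (SE 0.40; adjusted p = 0.00102). Only the 11.8 CPM of replicate 1 of ENG-FDG+ cells, the library with several raised marker sums, reached the FLK1+ range.

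The other inhibitors did not pass. Sfrp1 had 6.87 to 11.6 CPM in FLK1+ and 2.1 to 21 CPM in HEI libraries, with a difference of -0.71 (adjusted p = 0.216); the replicate block gave -0.92 (adjusted p = 0.0336), and in replicates 2 and 3 alone -1.45 (adjusted p = 2.1e-07). Without replicate 1 of ENG-FDG+ cells alone the Sfrp1 difference was -1.18 (adjusted p = 0.00669). Without replicate 1 of each group the highest HEI value of Sfrp1 was 4.41 CPM, below the lowest remaining FLK1+ value of 8.31 CPM. Dkk3 ranged over 2.94 to 7.8 CPM and 2.6 to 18.2 CPM, and Dkk2 over 1.02 to 2.22 CPM and 0.17 to 1.89 CPM. The 18.2 CPM is again replicate 1 of ENG-FDG+ cells: the Dkk3 difference was -0.22 (adjusted p = 0.718) with it, -0.70 (adjusted p = 0.0431) without it and -0.89 (adjusted p = 1.55e-04) in replicates 2 and 3 alone. Sfrp5 and Wif1 were not tested, with at most 7 and 1 reads in a library.

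The summed level of the Frizzled receptors was 68.2 to 93.1 CPM per kilobase in FLK1+ and 33.4 to 42.5 in HEI libraries, so it did not overlap. The medians were 75.4 and 37.8 for the Frizzleds, beside 70.4 and 6.57 for the ligands. On the per-length scale Fzd7 made up 45.5% to 67.1% of the Frizzled sum in FLK1+ libraries and 19% to 37.3% in HEI libraries. Fzd4 had a median share of 4.12% in FLK1+ and 15.7% in HEI libraries, and Fzd1 one of 8.26% and 17.4%. These sums and shares are descriptions and were not tested.

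Fzd7 (ENSMUSG00000041075.8, GRCm38 chr1:59482424-59486955, plus strand), a main Frizzled of embryonic stem cells and early mesoderm, read 214, 283 and 212 CPM in FLK1+ LacZ- and 141, 220 and 172 CPM in FLK1+ LacZ+ cells. In HEI cells it read 28.8, 62.9 and 49.3 CPM in the ENG+FDG- group, 32.3, 46.9 and 45.5 CPM in the ENG+FDG+ group and 44.5, 71.8 and 60.2 CPM in the ENG-FDG+ group. It fell by 2.07 on the log2 scale (SE 0.19; adjusted p = 4.0e-06), with no overlap. Fzd10 read 18.2, 22.9 and 22.9 CPM in FLK1+ LacZ- and 53.1, 21.4 and 26.4 CPM in FLK1+ LacZ+ cells, and 8.01, 15 and 13.9 CPM in the ENG+FDG- group, 7.16, 15 and 12.1 CPM in the ENG+FDG+ group and 20.9, 32.5 and 31.9 CPM in the ENG-FDG+ group. It fell by 0.76 on the log2 scale (SE 0.25; adjusted p = 0.0286), and the ENG-FDG+ values lay within the FLK1+ range while the other HEI values lay below it. Its call was lost in 3 of the 15 analyses that left out 1 library: replicate 2 (adjusted p = 0.0612) or 3 (adjusted p = 0.0622) of LacZ- cells, or replicate 1 of LacZ+ cells (adjusted p = 0.0981).

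Fzd8 was the only member that rose past the threshold without the block; with it Fzd4, Fzd5, Apc, Ctnnb1 and Tcf7l2 rose too. It read 1.05, 0.277 and 1.02 CPM in FLK1+ LacZ- and 3.58, 1 and 1.23 CPM in FLK1+ LacZ+ cells, and 18.4, 5.64 and 6.24 CPM in the ENG+FDG- group, 19.6, 5.14 and 4.87 CPM in the ENG+FDG+ group and 9.67, 2.89 and 4.6 CPM in the ENG-FDG+ group. The log2 difference was 2.73 (SE 0.55; adjusted p = 0.00162), and 2.58 in replicates 2 and 3 alone. Within every group of HEI cells replicate 1 was the highest, and the stages overlapped at replicate 1 of LacZ+ cells.

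Fzd3, known from axon guidance and planar polarity, read 28.9, 89.3 and 90.6 CPM in FLK1+ LacZ- and 22.4, 97.3 and 87.6 CPM in FLK1+ LacZ+ cells, and 10.5, 41.7 and 43 CPM in the ENG+FDG- group, 11.8, 38.2 and 35.7 CPM in the ENG+FDG+ group and 18.9, 51 and 43.5 CPM in the ENG-FDG+ group. Replicate 1 was below the others by far in all 5 groups. The difference of -1.10 (SE 0.44) missed the threshold (adjusted p = 0.066); the replicate block gave -1.06 (SE 0.10; adjusted p = 2.7e-07). Fzd3 was also called without replicate 1 of LacZ- (adjusted p = 0.0383) or of LacZ+ cells (adjusted p = 0.0258). Fzd4, the receptor of Norrin in blood vessels, had 8.94 to 40.2 CPM in FLK1+ and 14.6 to 43.7 CPM in HEI libraries, a difference of 0.65 (adjusted p = 0.152) that passed with the block (0.81; adjusted p = 0.00777).

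Fzd5 was at 7.9 to 20.3 CPM and 11.1 to 26.7 CPM, and passed with the block as well (0.59; adjusted p = 0.00354) and without replicate 1 of LacZ+ cells (0.83; adjusted p = 0.00847). Fzd1, Fzd2 and Fzd6 differed between the stages by -0.31, -0.66 and 0.49, none past the threshold. Of these Fzd2 passed with the block (-0.74, adjusted p = 0.00563). In replicates 2 and 3 alone, where 73.7% of all genes were called, each of them passed in edgeR. Fzd1 differed by -0.36 (adjusted p = 0.00215), Fzd2 by -0.77 (adjusted p = 2.05e-04) and Fzd6 by 0.86 (adjusted p = 1.21e-04). Fzd9 stayed below the filter with at most 24 reads, 2 to 24 in FLK1+ and 0 to 4 in HEI libraries.

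**Figure D3:**
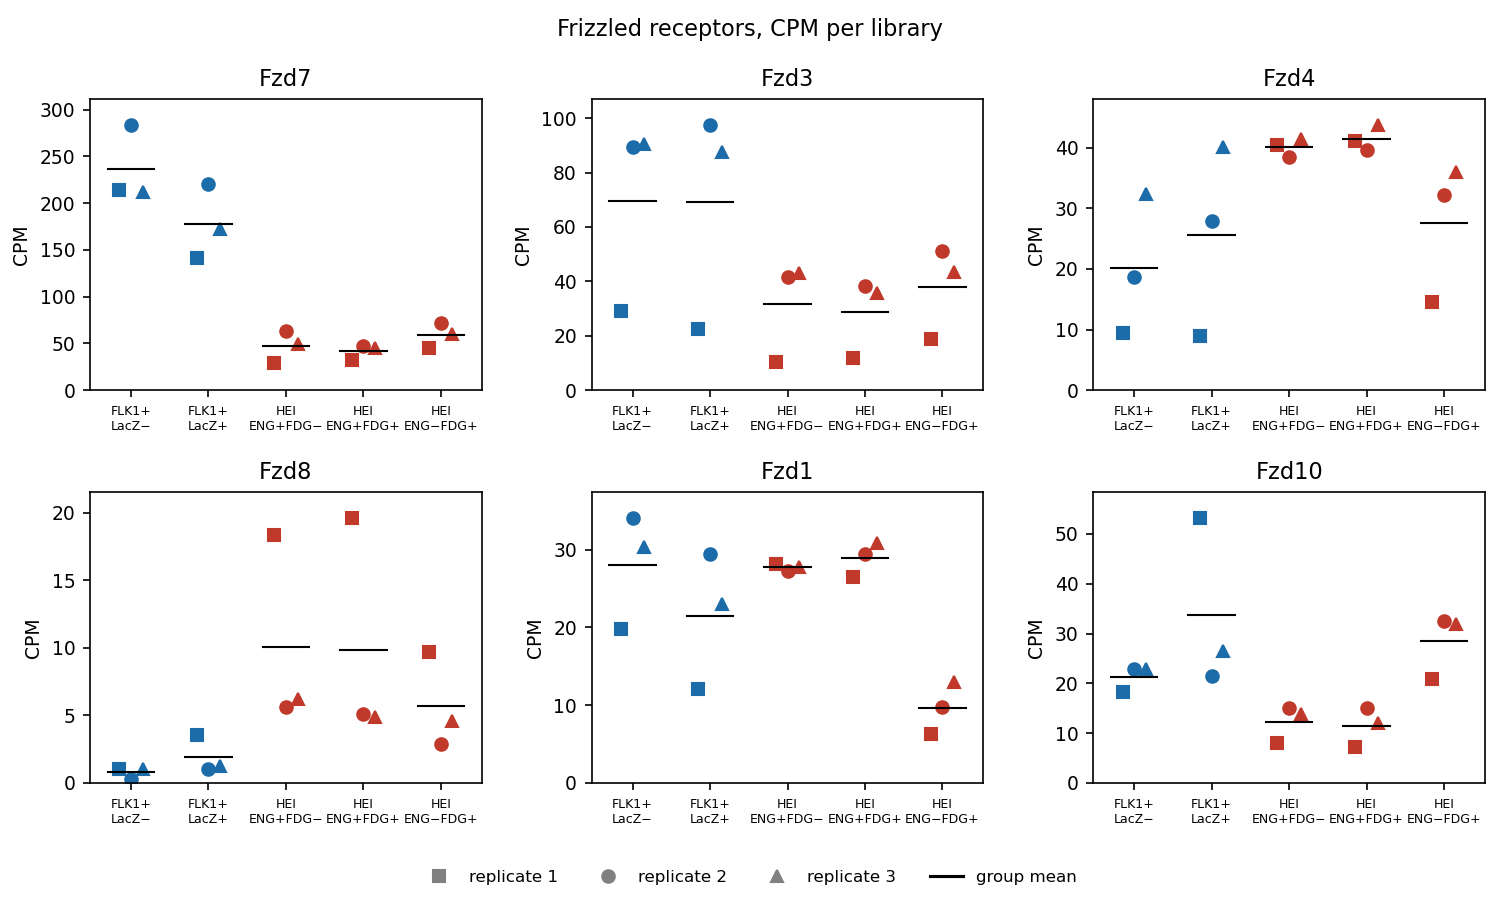
CPM per library (vertical axis from 0) of 6 Frizzled receptors by sorted group, replicates as symbols, group mean as a line. Fzd7 is higher in all FLK1+ libraries (141 to 283 CPM) than in the HEI libraries (28.8 to 71.8 CPM). Fzd8 is at 2.89 CPM or more in all HEI libraries, and Fzd1 is low and Fzd10 high in ENG-FDG+ cells relative to the ENG+ HEI groups.

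Of the destruction complex, Axin2 fell without the block. Axin2 (ENSMUSG00000000142.15, GRCm38 chr11:108920349-108950783, plus strand), the inducible scaffold and a standard readout of canonical signalling, read 210, 145 and 152 CPM in FLK1+ LacZ- and 175, 150 and 134 CPM in FLK1+ LacZ+ cells. In HEI cells it read 4.85, 13.2 and 9.53 CPM in the ENG+FDG- group, 7.61, 10.2 and 9.64 CPM in the ENG+FDG+ group and 13.6, 15.5 and 10.2 CPM in the ENG-FDG+ group. It fell by 3.96 on the log2 scale (SE 0.21; adjusted p = 5.8e-08), and mean CPM was 15.4-fold lower. The constitutive scaffold Axin1, from a different gene, had 40.3 to 59.9 CPM in FLK1+ and 27.3 to 54.2 CPM in HEI libraries. Its difference of -0.40 (SE 0.15) missed the threshold (adjusted p = 0.0531) and passed with the block (adjusted p = 4.12e-04), without replicate 1 of ENG-FDG+ cells (adjusted p = 0.0137) and without replicate 1 of ENG+FDG+ cells (adjusted p = 0.0403).

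Ctnnb1, which encodes beta-catenin, was the most abundant member. It read 600, 1098 and 1033 CPM in FLK1+ LacZ- and 684, 1026 and 1149 CPM in FLK1+ LacZ+ cells. In HEI cells it read 1170, 1650 and 1497 CPM in the ENG+FDG- group, 1076, 1526 and 1478 CPM in the ENG+FDG+ group and 702, 1307 and 1114 CPM in the ENG-FDG+ group. The difference of 0.44 (SE 0.21) did not pass (adjusted p = 0.121), and the replicate block gave 0.46 (SE 0.07; adjusted p = 6.9e-05). Apc read 160, 413 and 385 CPM in FLK1+ LacZ- and 189, 424 and 413 CPM in FLK1+ LacZ+ cells, and 341, 597 and 664 CPM in the ENG+FDG- group, 337, 626 and 624 CPM in the ENG+FDG+ group and 238, 566 and 510 CPM in the ENG-FDG+ group. Its difference was 0.59 (SE 0.30; adjusted p = 0.151), or 0.63 (SE 0.07; adjusted p = 3.1e-06) with the block. In both genes replicate 1 was the lowest of its group in all 5 groups.

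Of the nuclear factors, 2 of 4 fell. Tcf7 (ENSMUSG00000000782.15, GRCm38 chr11:52252371-52283014, minus strand) and Lef1 (ENSMUSG00000027985.14, GRCm38 chr3:131110471-131224356, plus strand), both mostly activators of canonical targets and themselves known targets, were those. Tcf7 read 150, 157 and 159 CPM in FLK1+ LacZ- and 170, 155 and 147 CPM in FLK1+ LacZ+ cells. In HEI cells it read 17, 24.5 and 19.7 CPM in the ENG+FDG- group, 17.8, 18 and 19.6 CPM in the ENG+FDG+ group and 36.5, 35.6 and 36.5 CPM in the ENG-FDG+ group. It fell by 2.71 on the log2 scale (SE 0.11; adjusted p = 9.5e-09), the smallest standard error of any member. Lef1 read 214, 131 and 122 CPM in FLK1+ LacZ- and 157, 112 and 99.7 CPM in FLK1+ LacZ+ cells, and 28.8, 13.6 and 15.6 CPM in the ENG+FDG- group, 35, 13.4 and 15.2 CPM in the ENG+FDG+ group and 31, 8.56 and 9.03 CPM in the ENG-FDG+ group. It fell by 2.88 on the log2 scale (SE 0.34; adjusted p = 2.9e-05), without overlap, although replicate 1 was the highest of its group in all 5 groups.

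Tcf7l1, mostly a repressor, had 20.3 to 72.4 CPM in FLK1+ and 17.6 to 125 CPM in HEI libraries (difference 0.34, SE 0.47, adjusted p = 0.62). In replicates 2 and 3 alone, where 73.7% of all genes were called, it passed in edgeR as higher in HEI cells (0.39, adjusted p = 0.0014). Tcf7l2 had 35.1 to 51.4 CPM and 27.9 to 65.5 CPM (0.23, SE 0.17; adjusted p = 0.322), and passed with the block (0.22; adjusted p = 0.0341). In CPM per kilobase, Tcf7 and Lef1 together made up 76.9% to 86.5% of the TCF/LEF sum in FLK1+ libraries and 30.5% to 58% in HEI libraries. The sum itself was 98.6 to 149 CPM per kilobase in FLK1+ and 28.4 to 74.5 in HEI libraries, or to 53.5 without replicate 1 of ENG-FDG+ cells. The share of Tcf7l1 had a median of 7.85% in FLK1+ and 35% in HEI libraries, and that of Tcf7l2 one of 7.39% and 27.9%.

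**Figure D4:**
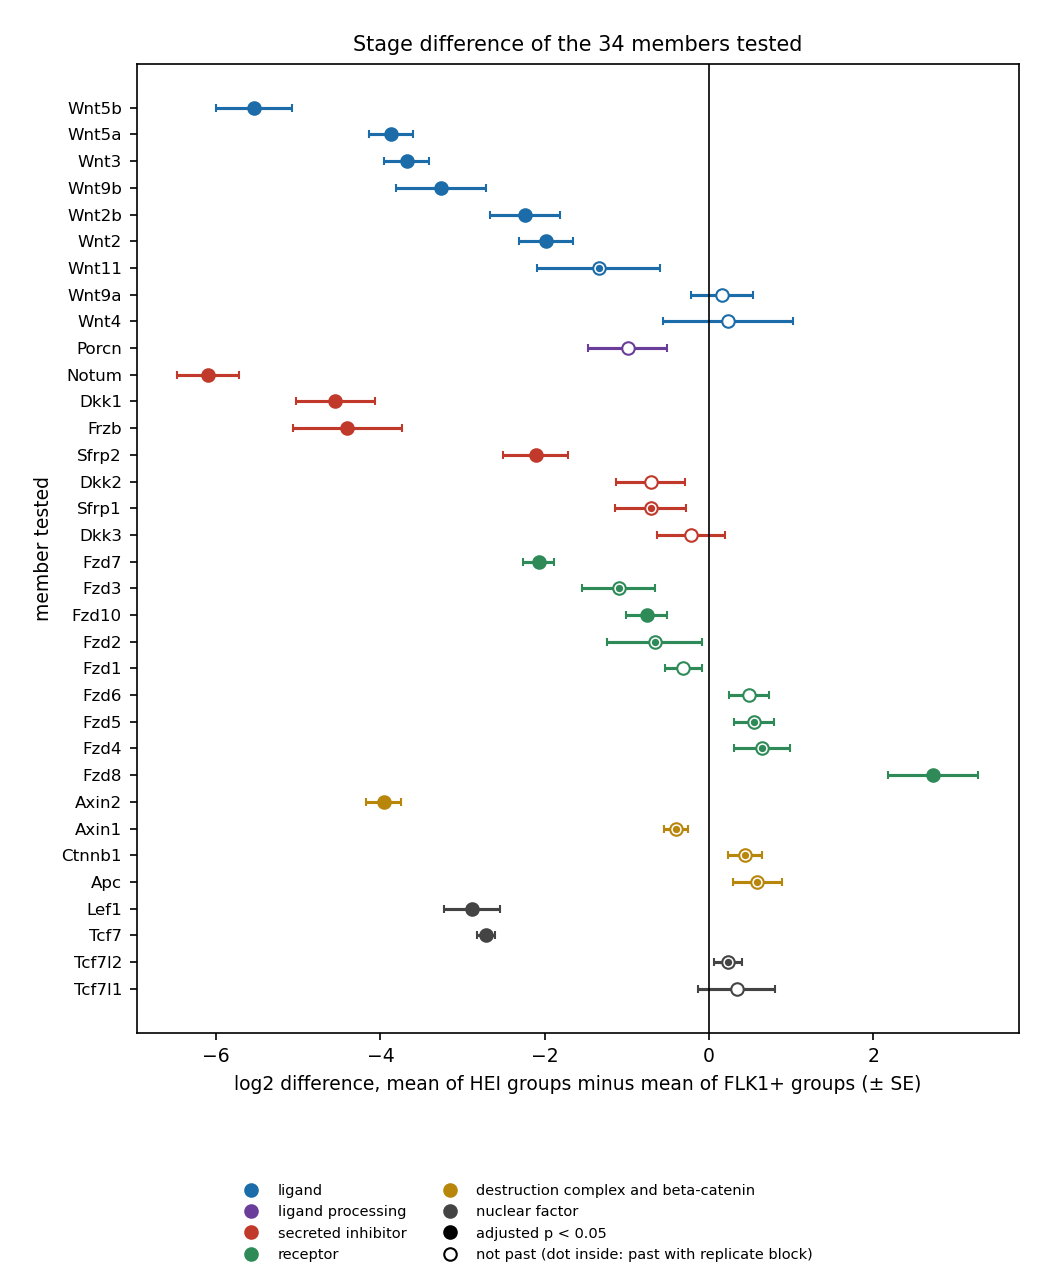
Log2 difference of HEI minus FLK1+ group means (horizontal axis, ± SE) for the 34 members tested, grouped and coloured by role; filled symbols passed the adjusted threshold of 0.05, and a dot inside an open symbol marks a pass with the replicate block. The filled symbols lie to the left of 0 except Fzd8, at 2.73, and Ctnnb1, Apc, Tcf7l1 and Tcf7l2 lie close to the right of 0.

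With the replicate number as a block, 26 members passed in place of 16, 6 higher and 20 lower, where 66.2% of all genes passed, 28.8% as higher and 37.4% as lower. Every one of the 16 called without the block had the same direction in replicates 2 and 3 alone. In that analysis 30 of 33 members tested passed, 8 higher and 22 lower, with 73.7% of all genes called, 36.8% as higher and 36.9% as lower. DESeq2, which was also given the genes below edgeR's filter, called 21 of the members (36.7% of all genes): those 16, Fzd3, Axin1 and, below that filter, Fzd9, Wnt6 and Wnt8a.

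Among the 3 HEI groups, 1 member passed without the block, Tcf7, which was higher in ENG-FDG+ than in ENG+FDG+ cells. In the FDG+ cells, ENG+ against ENG-, 1 of 34 members was called, where 0.278% of all genes were. Tcf7 was at 17.8, 18 and 19.6 CPM in ENG+FDG+ cells, and at 36.5, 35.6 and 36.5 CPM in ENG-FDG+ cells. It was lower in ENG+FDG+ cells by a log2 difference of -0.97 (SE 0.18; adjusted p = 0.0438), and the groups did not overlap. The difference lay between -1.01 and -0.94 when each of the 6 libraries was left out, and none of those 6 analyses called it. Under the block its adjusted p was 5.78e-04 and under DESeq2 1.6e-05. The 35.6 to 36.5 CPM of ENG-FDG+ cells lay between the 147 to 170 CPM of FLK1+ cells and the 17 to 24.5 CPM of both ENG+ HEI groups. The ENG+FDG+ and ENG-FDG+ libraries also differed in markers: the endothelial sum was 3335 to 5008 and 1799 to 1956 CPM, the early haematopoietic sum 214 to 254 and 607 to 794 CPM, and the mesenchymal sum 116 to 563 and 346 to 5093 CPM, with no list wholly at 0. With the block 4 of 8, 5 of 8 and 6 of 7 genes of these lists passed. Those of the first list were higher and those of the others lower in ENG+FDG+ cells. Ptprc of the haematopoietic list was not tested. Over all genes 10.8% passed with the block, 5.1% as higher and 5.75% as lower. The endothelial list and its sum include Eng, whose protein the sort used. Eng was among the 4 endothelial genes that passed (adjusted p = 2.36e-04), so its difference was not independent of the sort. The part of these lists in the differences of the members was not tested.

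The blocked analysis called 11 members in this comparison, where 10.8% of all genes were called (5.1% higher, 5.75% lower): Fzd1, Notum, Ctnnb1 and Tcf7l2 were higher in ENG+FDG+ cells, and Wnt5a, Wnt4, Fzd10, Fzd7, Fzd2, Axin1 and Tcf7 were lower. Replicates with the same number deviated together in these groups (correlations of 0.527 to 0.67), so the block removes a spread they share. Libraries of different numbers reached 0.535, so the shared spread was not tied to the number alone. Of the 10 members besides Tcf7, DESeq2 without a block called Fzd1 (adjusted p = 0.00211) and Wnt5a (adjusted p = 0.00473), where it called 2.77% of all genes.

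Fzd1, a Frizzled broadly used in canonical signalling, was at 26.5, 29.4 and 30.9 CPM in ENG+FDG+ cells, and 6.28, 9.71 and 13 CPM in ENG-FDG+ cells, with 28.2, 27.3 and 27.7 CPM in ENG+FDG- cells. Neither ENG+ group overlapped the ENG- group. The difference was 1.58 (SE 0.35; adjusted p = 0.0846) without and 1.62 (SE 0.24; adjusted p = 0.00103) with the block. Fzd10 went the other way, with 7.16, 15 and 12.1 CPM in ENG+FDG+ cells, and 20.9, 32.5 and 31.9 CPM in ENG-FDG+ cells. Its difference was -1.33 (SE 0.36; adjusted p = 0.0305) with the block. In CPM per kilobase, Fzd1 made up 17.9% to 20% of the Frizzled sum in ENG+FDG+ and 3.67% to 7.57% in ENG-FDG+ cells, and Fzd10 6.23% to 12.3% and 15.7% to 24%.

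Fzd7 was at 32.3, 46.9 and 45.5 CPM in ENG+FDG+ cells, and 44.5, 71.8 and 60.2 CPM in ENG-FDG+ cells, a blocked difference of -0.49 (SE 0.14; adjusted p = 0.036). Axin1 was at 36.2, 27.3 and 28.9 CPM against 54.2, 37.7 and 35.7 CPM (-0.45, SE 0.12; adjusted p = 0.0308). Both were lower in ENG+FDG+ cells within each replicate number, but their ranges overlapped. Ctnnb1 and Tcf7l2 were higher within each number. Ctnnb1 was at 1076, 1526 and 1478 CPM against 702, 1307 and 1114 CPM (0.41, SE 0.11; adjusted p = 0.0302). Tcf7l2 was at 65.5, 55.9 and 47.2 CPM against 52.9, 32.1 and 27.9 CPM (0.61, SE 0.13; adjusted p = 0.011). Notum had 3, 1 and 3 reads in ENG+FDG+ and none in ENG-FDG+ libraries, so both groups were at or under the 3 reads that a count of 0 allows, and no fold is given.

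Wnt4, Wnt5a and Fzd2 had their highest HEI value in 1 library, replicate 1 of ENG-FDG+ cells. Wnt4 was at 9.3, 0.571 and 1.19 CPM in ENG+FDG+ cells, and at 44.5, 2.89 and 5.11 CPM in ENG-FDG+ cells. Within replicate numbers it was lower in the ENG+FDG+ cells by similar steps (-2.24, -2.05 and -1.96 on the log2 scale), and the blocked difference was -2.13 (SE 0.52; adjusted p = 0.0188). Without the block, leaving out replicate 1 of 1 group or the other moved it from -4.29 to -0.09. Wnt5a was at 11.9, 11 and 9.64 CPM against 66.8, 15.1 and 33.1 CPM, with no overlap (blocked -1.80, SE 0.42; adjusted p = 0.018). Without the block it was -1.82 (adjusted p = 0.0978), and -1.18 (adjusted p = 0.0658) in replicates 2 and 3 alone.

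Fzd2 was at 15.9, 4.86 and 3.68 CPM against 53.5, 5 and 7.84 CPM, blocked -1.11 (SE 0.33; adjusted p = 0.0454), and it was not called in replicates 2 and 3 alone (-0.54; adjusted p = 0.142). Replicate 1 of ENG-FDG+ cells was also the highest HEI library for Tcf7l1 (125 CPM), Dkk3 (18.2 CPM), Sfrp1 (21 CPM), Sfrp2 (11.8 CPM) and Frzb (5.18 CPM). The raised marker sums of that library (5093 CPM for mesenchyme) and its lower number of detected genes are given above. Their part in these values was not tested. Tcf7l1 changed direction between replicates: 70.5 against 125 CPM in replicate 1, but 37.4 and 33.3 CPM against 17.6 and 18.7 CPM in replicates 2 and 3, where it was higher in ENG+FDG+ cells by 1.02 (adjusted p = 4.4e-05). Lef1 was likewise higher there by 0.76 in replicates 2 and 3 alone (adjusted p = 5.65e-04). With those libraries only, 14 members passed, 7 in each direction, where 29.3% of all genes did (14.7% higher, 14.6% lower).

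**Figure D5:**
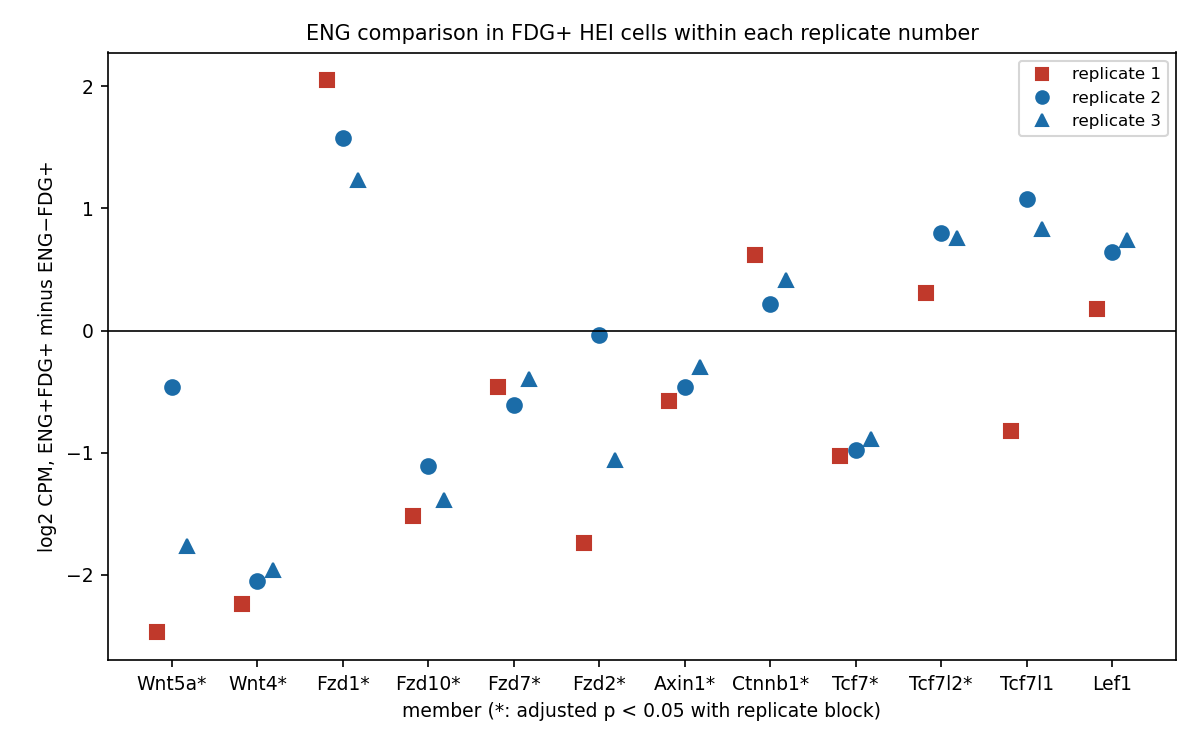
Log2 CPM difference of ENG+FDG+ minus ENG-FDG+ cells (vertical axis) within each replicate number for 12 members, replicate 1 in red and replicates 2 and 3 in blue. Tcf7 has 3 points close to -1, Fzd1 has 3 points above 1, and Tcf7l1 has replicate 1 below 0 and the others above it.

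The comparison of ENG-FDG+ with ENG+FDG- cells shares the ENG-FDG+ libraries with the one above. No member passed without the block, where 0.351% of all genes were called. An unadjusted p under 0.05 was found for 6 of 34 members and for 1309 of all 13662 genes tested. DESeq2 called 3 members (2.89% of all genes): Tcf7, Fzd1 and Wnt5a. Replicates 2 and 3 alone gave 10 (27.1%). With the block 8 passed, where 11.1% of all genes did (5.44% higher, 5.65% lower): Tcf7, Fzd10, Fzd2, Wnt4 and Wnt5a were higher in ENG-FDG+ cells, and Fzd1, Ctnnb1 and Tcf7l2 were lower. Tcf7 was at 17, 24.5 and 19.7 CPM in ENG+FDG- cells, below the 35.6 to 36.5 CPM of ENG-FDG+ cells, a difference of 0.83 (SE 0.18; adjusted p = 0.07) that passed with the block (0.84; adjusted p = 0.00145). Wnt5a was at 10.8, 13.1 and 14.1 CPM and Wnt4 at 7.77, 0.793 and 1.3 CPM in ENG+FDG- cells.

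Within the ENG+ HEI cells, FDG+ and FDG- were told apart by no member. None of 34 passed in edgeR, with or without the block, or in DESeq2, none had an unadjusted p under 0.05 without the block, and 0% of all genes were called. Replicates 2 and 3 alone gave no member either (0.563% of all genes). The log2 differences lay between -1.08 (Wnt9a, SE 0.58) and 0.85 (Notum, at most 3 reads per library). Wnt9a was at 1.64, 1.67 and 1.47 CPM in FDG- and 1.24, 0.286 and 0.695 CPM in FDG+ cells, lower in FDG+ cells within all 3 numbers. Its unadjusted p was 0.0366 with the block.

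In FLK1+ cells the LacZ sort gave no call either. None of 34 members passed in edgeR, with or without the block, or in DESeq2, none had an unadjusted p under 0.05 without the block, and 0% of all genes were called by edgeR (0.0367% by DESeq2). Replicates 2 and 3 alone gave no member either (0.0601% of all genes). Log2 differences of LacZ+ minus LacZ- cells lay between -0.86 and 1.31. Of the 34 members, 12 (35.3%) were on the same side within all 3 replicate numbers, 10 lower and 2 higher in LacZ+ cells. Over all 13662 genes tested, 4103 (30%) were, 1688 lower and 2415 higher. The share of the members was thus near that of all genes, and the split by direction was not tested. The steps that follow are descriptions only. In replicates 1, 2 and 3 the log2 difference was -0.34, -0.33 and -0.44 for Wnt3, and -0.42, -0.28 and -0.22 for Wnt5a. It was -0.60, -0.36 and -0.30 for Fzd7, -0.44, -0.23 and -0.29 for Lef1 and -1.16, -0.52 and -0.51 for Dkk1. Fzd8 was higher in LacZ+ cells, by 1.62, 1.40 and 0.24. The other 6 were Wnt2b, Wnt9b, Fzd1, Dkk2 and Frzb, lower by steps from -1.38 to -0.01, and Apc, higher by 0.04 to 0.23. Markers differed within the same numbers: the endothelial sum was 68.9, 68.7 and 78.8 CPM in LacZ- and 356, 104 and 125 CPM in LacZ+ cells, and that of 6 genes of FLK1+ mesoderm 1924, 1533 and 1216 CPM and 1361, 1249 and 930 CPM. Their part in these differences was not tested. The block gave an unadjusted p of 0.00619 for Fzd7 and 0.00926 for Fzd8, with adjusted p of 0.641 and 0.731. The difference between the reporter effects in HEI and FLK1+ cells passed for no member. Over all genes 0% were called by edgeR and by DESeq2, and 0.03% in replicates 2 and 3 alone. Without the block none of the 34 had an unadjusted p under 0.05 in edgeR, the lowest being 0.186, for Fzd10. With the block the unadjusted p of Fzd8 was 0.0207. In replicates 2 and 3 alone that of Fzd1 was 0.0335 (adjusted p = 0.527).

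Other genes of the pathway were taken from a list of 73, of which 64 were tested. From FLK1+ to HEI cells 26 of them fell and 7 rose, where 20.3% of all genes fell and 17% rose, and their median log2 difference was -0.57, against -0.11 over all genes. Of 11 genes known to respond to beta-catenin in early mesoderm or widely, 10 were tested and 10 fell; several of them also mark the primitive streak, so the count does not separate the pathway from the loss of streak identity. The streak factors Mixl1 and T went from 280 to 980 CPM and 85.2 to 311 CPM in FLK1+ libraries to at most 2.98 and 1.92 CPM in HEI libraries. Sp5, a direct canonical target, went from 2.67 to 38.6 CPM to at most 0.182 CPM, and Cdx4, a regulator of Hox genes, from 2.11 to 18.3 CPM to at most 0.0952 CPM.

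The 4 highest rises were in Lgr6, an R-spondin receptor, at most 0.383 CPM in FLK1+ and 2.4 to 15.2 CPM in HEI libraries, in Sost, a secreted inhibitor that binds LRP5 and LRP6, at most 1.15 CPM and 2.5 to 25.8 CPM, and in the planar polarity genes Prickle1 (18.2 to 40.2 CPM and 47.3 to 96.9 CPM) and Celsr2 (2.41 to 8.24 CPM and 6.02 to 18.9 CPM). In the ENG comparison 1 of 64 passed, the R-spondin receptor Lgr5, with 0.65, 1.14 and 1.39 CPM in ENG+FDG+ cells, and 6.7, 12.7 and 13 CPM in ENG-FDG+ cells (adjusted p = 0.00581); with the block 10 of 64 passed, 6 higher and 4 lower, where 10.8% of all genes did (5.1% higher, 5.75% lower). Between ENG-FDG+ and ENG+FDG- cells Lgr5 was higher (adjusted p = 0.0103) and Prickle2 lower (9.03 ± 3.92 against 38.8 ± 6.81 CPM, SD, n = 3; adjusted p = 0.0453 by edgeR). None of the 64 passed for the LacZ or the FDG sort, where the most abundant, the tankyrase Tnks2 and the kinase Gsk3b, were at 715 to 902 CPM and 277 to 416 CPM on average per group and Mixl1 and Ccnd1 were also high in FLK1+ cells.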

How the data were processed

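The authors deposited unnormalised whole-number counts of reads by gene symbol, with a column for each library. STAR 2.4.0, HTSeq 0.6.1 and mm10 are named per the submitters' processing notes; the sources used here give no annotation, strand setting or filter, so overlapping and antisense genes could share reads. Per the labels' protocols, RNA was amplified (Nugen) after the sort. Of 24061 lines, 27 held a calendar date in place of a symbol and were left out.

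Counts were analysed with edgeR 4.0.16 (limma 3.58.1, R 4.3.3): filterByExpr, TMM scaling, and a robust quasi-likelihood fit of the 5 group means to all 15 libraries, 6 comparisons, Benjamini-Hochberg over the 13662 genes tested, threshold 0.05. The steps were run on simulated counts for the stage comparison only, with large changes and a smaller spread between libraries than in these data. That run does not cover the smaller differences within a stage. CPM are after TMM scaling; per-kilobase levels divide by the exon length of GENCODE M21, which matched all 47 members. Log2 differences within a replicate number used a prior count of 2. A count of 0 was taken to allow 3 counts, which covers counting error only. DESeq2 1.42.0, RLE factors, other filters, the compared groups alone, each library left out, replicates 2 and 3, replicate 1 and a replicate block were alternatives.

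Replicate numbers come from the labels. Deviations of same-numbered libraries from their group means correlated at 0.432 to 0.867 over all pairs of groups; each pair was above 0.1, the limit used to treat the numbers as pairs. Libraries of different numbers reached 0.636, above the lowest same-number value. Members and lists were chosen with earlier results of these data known. Values in every library are given for members called without the block in any comparison, or with it within a stage, or averaging at least 50 CPM in a group; other pathway genes are named by size of change, up to 4 per comparison and direction, at 5 CPM or more. Promoter sequences are from RefSeq (GRCm38.p6). No per-sample column was left unused.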

Additional observations from a re-analysis of the deposited data

How the results depend on the processing

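Over 831 values of single members recomputed under other settings, 734 kept their direction and their side of the threshold. Of the rest, 64 passed only in the alternative, 12 lost their call, 18 moved and 3 turned in sign. These values cover 45 pairs of a member and a comparison. Analyses that left out 1 library, and so share all others with the main one, gave 504 of the 831 and 485 of the 734. Replicate 1 only, which allows no test, gave all 18 that moved, and 26 of its 45 values stayed the same. The replicate block raised the members called from 1 to 11 for ENG in FDG+ cells, from 0 to 8 between ENG-FDG+ and ENG+FDG- cells, and from 16 to 26 between stages. Replicates 2 and 3 alone gave 14, 10 and 30 in the same order, and DESeq2 gave 3 and 3 for the first pair of comparisons. For ENG in FDG+ cells, 0 passed with no filter on low counts and 0 with the compared groups alone, and 0 to 1 with 1 library left out. Leaving out 1 library gave 17 to 22 members between stages, where the filter then kept up to 37 members and 33% to 40.9% of all genes were called. It gave 0 between ENG-FDG+ and ENG+FDG- cells. Without replicate 1 of ENG-FDG+ cells, the Fzd2 difference turned to 0.36 for ENG in FDG+ cells and to -0.18 between ENG-FDG+ and ENG+FDG- cells; with other libraries left out it reached -2.37 and 2.15. In replicate 1 only, which allows no test, the stage difference of Sfrp1 was 0.17. The cause was not tested. The LacZ and FDG comparisons and the reporter difference between stages gave 0 calls under every alternative run, blocked ones included. At these depths the 13 members below the filter, with at most 65 reads, allow no statement on small differences.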

Other observations

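Some ligand genes lie side by side in the mouse genome (GRCm38, GENCODE M21). Wnt9b (chr11:103727364-103749821, minus strand) and Wnt3 (chr11:103774150-103817957, plus strand) are 24.3 kb apart and face away from each other. Both fell from FLK1+ to HEI cells, yet in FLK1+ cells Wnt3 averaged 17.5 CPM per kilobase of exon and Wnt9b 0.402. Wnt3a and Wnt9a, 16.2 kb apart on the same chromosome, averaged 0.0849 and 0.267 in FLK1+ cells and 0 and 0.312 in HEI cells. Wnt6 and Wnt10a, 6.19 kb apart on chromosome 1, had at most 55 and 2 reads in any library, and Wnt10b and Wnt1, 11.7 kb apart on chromosome 15, at most 1 read each.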
